A study of Mus musculus with 6 samples.

Results

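The fibroblast growth factor (FGF) pathway that runs through the ERK kinases was followed gene by gene in mouse embryonic stem (ES) cells with and without the chromatin organiser Satb1. A list of 35 genes covered the pathway from its ligands to its targets, and 32 of them could be measured among the 19938 genes of the array table. They were matched by gene symbol, with the brightest probe set kept where a gene had several. The 32 genes fell into 11 ligands and receptors, 9 kinases and adaptors and 12 feedback inhibitors and targets. Frs2, Hras and Mapk3 were not analysed here.

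FGF ligands bind receptor tyrosine kinases at the cell surface, and the adaptors Frs2, Grb2 and Gab1 with the phosphatase Ptpn11 link the receptor to the exchange factors Sos1 and Sos2, which load RAS with GTP. RAS activates the RAF kinases, these the MEK kinases, and these the ERK kinases, which act largely by phosphorylation, so that transcript levels do not read out the activity of the cascade. ERK signalling induces its own inhibitors, the Sprouty, Spred and Dusp genes, together with Ets factors, and in mouse ES cells the pathway, driven mainly by Fgf4 made by the cells themselves, moves cells away from the naive state.

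All cells carried a HygroTK selection marker in the Oct4 locus and were cultured with LIF, 15% serum and hygromycin on irradiated feeders for 3 days. There were 3 arrays of wild-type (WT) cells, labelled as control, and 3 of Satb1-/- cells, labelled as clones 1-1, 1-2 and 2-1. The labels do not say what the first clone number means, nor whether each array had a culture of its own, so that p-values measure only how these arrays spread, and part of that may be technical. To remove feeders the suspension was left to settle, and RNA was made from its upper part. Satb1 itself read 5.12, 4.99 and 5.31 on WT arrays 1, 2 and 3 and 4.38, 4.47 and 4.57 on Satb1-/- arrays 1-1, 1-2 and 2-1, a difference of -0.67 (SE 0.12, limma adjusted p = 0.022). Leaving out WT array 1 or any one Satb1-/- array took that adjusted p to between 0.0623 and 0.128, and it stayed under 0.05 in 8 of the 15 alternatives that gave a value (0.155 with a floor on dim values, 0.0871 with each array centred and 0.118 with clones 1-1 and 1-2 averaged). The labels do not tell whether the deletion covers these probes.

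The values are log2 expression, so that a difference of 1 is a change of 2-fold, and every difference below is Satb1-/- minus WT with the moderated standard error (SE) of limma. The word changed is kept for genes whose p, adjusted by Benjamini-Hochberg over the 19938 genes tested, was under 0.05. The 8 ES cell markers had a mean level between 9.66 and 9.92 on the 6 arrays. Of them 1 passed the test, Nanog, which rose by 1.09 (limma adjusted p = 0.00109). Of all genes 1.4% passed, and 2.54% of genes above the median level, where all 8 lay. In 5 of the 8 the groups did not overlap, against 15.1% of all genes and 1990 of the 9969 genes above the median level. Nanog and Sox2 (mean 9.94 in WT and 10.24 in Satb1-/- cells) were higher on every Satb1-/- array. Dppa4 (-0.39), Pou5f1 (-0.39) and Tdgf1 (-0.06) were lower on every Satb1-/- array. Nanog lies on chromosome 6 among raised genes. Its nearest neighbours above the median gene level had a median difference of 1.01 (range 0.25 to 2.89). The part of gene position in the rise of Nanog was not tested. Of 8 primitive endoderm markers, 4 lay above the median gene level and 1 passed the test, Lama1, which rose by 1.53 (limma adjusted p = 0.00159). Gata6 and Sox17 lay between 3.77 and 4.78, Gata4 between 4.92 and 5.51, and Pdgfra between 6.07 and 7.10 (difference 0.53, limma adjusted p = 0.241). Pou5f1 (Oct4), the locus of the selection marker, read 10.13, 10.00 and 10.53 in WT and 9.82, 9.78 and 9.90 in Satb1-/- cells, a difference of -0.39 (limma adjusted p = 0.309). The median SD of a gene was 0.158 in WT and 0.106 in Satb1-/- cells, and limma's array weights were lowest for WT arrays 1 (0.46) and 3 (0.445), against 1.08 to 1.99 for the other 4. Of 9 measured feeder fibroblast markers 0 passed the test, but all 9 had a positive difference (median 0.21). Their mean level was 6.21, 6.44 and 5.99 on the WT arrays and 6.60, 6.41 and 6.60 on the Satb1-/- arrays.

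None of the 32 measured pathway genes changed between Satb1-/- and WT cells by limma. Of all genes 1.4% did (0.923% higher and 0.476% lower), and 2.54% of genes above the median level, where 26 of the 32 lay. At an unadjusted p under 0.05 there were 2, both feedback inhibitors (Spry2 and Dusp6). That share of 6.25% stands against 10.5% of all genes and 16.5% of genes above the median level. Differences ran from -0.33 for Egr1 to 0.50 for Spry2, with a median of 0.03 over the 32 genes and -0.00 over all genes. In 4 of the 32 genes the groups did not overlap. Fgf10, Dusp6 and Spry2 were higher and Fgfr1 lower on every Satb1-/- array, a share of 12.5% against a background of 15.1% (8.18% higher and 6.97% lower). The absence of calls does not show equal levels, since the 95% interval ran from -0.19 to 0.28 for Ptpn11 and from -0.89 to 0.23 for Egr1.

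**Figure D1:**
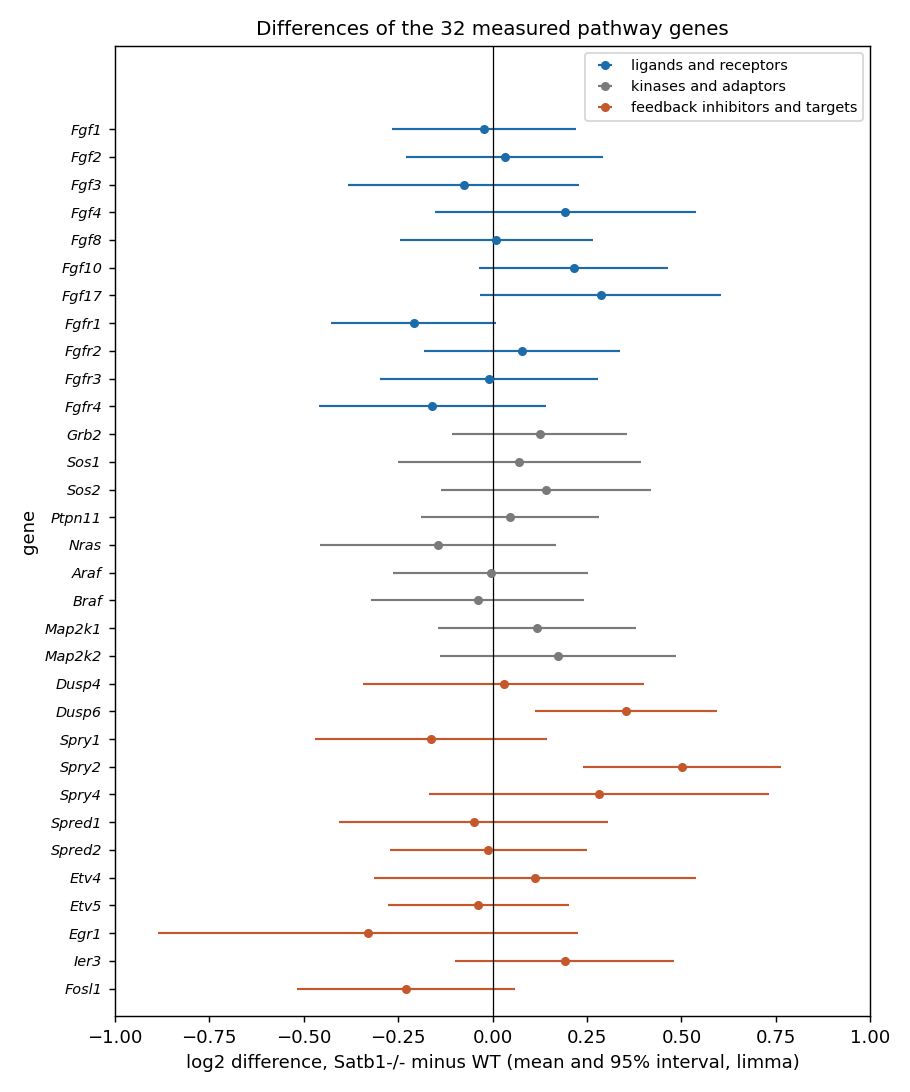
Log2 difference (Satb1-/- minus WT, horizontal axis) of each of the 32 measured genes (vertical axis), with the 95% interval from limma on 3 against 3 arrays; colours mark the 3 classes. Most intervals span 0, and those of Dusp6 (0.11 to 0.60) and Spry2 (0.24 to 0.76) lie above it, although neither passed after adjustment over all genes.

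The ligand and receptor class stayed close to 0, with a median difference of 0.01. Fgf4, the main FGF that ES cells make, read 7.33, 7.92 and 7.75 on WT arrays 1, 2 and 3 and 7.81, 8.03 and 7.73 on Satb1-/- arrays 1-1, 1-2 and 2-1. The ranges overlapped, and WT array 1 was the low one. The difference was 0.19 (SE 0.16, limma adjusted p = 0.795), with a 95% interval from -0.15 to 0.54, and without WT array 1 it was 0.03.

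Fgf8 and Fgf17 belong to the same subfamily of ligands, which act in gastrulation and brain patterning. Fgf8 read 6.18, 5.85 and 6.03 in WT and 6.04, 6.08 and 5.96 in Satb1-/- cells, a difference of 0.01 (SE 0.12, limma adjusted p = 0.994). Fgf17 read 6.22, 5.74 and 6.13 against 6.49, 6.26 and 6.19, a difference of 0.29 (SE 0.14, limma adjusted p = 0.561). Only the lowest Satb1-/- value of Fgf17 lay below a WT value, and WT array 2 was the low WT array for both genes.

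Fgf10, a ligand of mesenchyme that signals to epithelium, was dim, below the median gene level of 5.05. It read 4.79, 4.56 and 4.86 in WT and 4.98, 4.99 and 4.88 in Satb1-/- cells. All Satb1-/- values lay above all WT values, the nearest pair by a narrow margin, and the difference was 0.21 (SE 0.11, limma adjusted p = 0.591). Without WT array 2 it was 0.13. Fgf1, Fgf2 and Fgf3 were dim as well, at 3.61 to 4.94 on all arrays, and differed by -0.02, 0.03 and -0.08 with overlapping groups. RMA compresses the differences of genes near the background, so that these values bound little.

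Of the 4 FGF receptors, Fgfr1, the receptor that mediates most FGF4 signalling in ES cells together with Fgfr2, was lower on every Satb1-/- array. It read 7.98, 8.0 and 8.06 in WT and 7.84, 7.81 and 7.76 in Satb1-/- cells. Both groups were tight (SD 0.04 each, n = 3) and did not overlap. The difference of -0.21 (SE 0.10, limma adjusted p = 0.507), or 0.865-fold on the linear scale, did not pass the test. Fgfr1 lies on chromosome 8, where most genes were lower.

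Fgfr2, the epithelial partner receptor, read 5.90, 6.16 and 6.23 against 6.11, 6.23 and 6.18, a difference of 0.08 (95% interval -0.18 to 0.34). Fgfr3, known from bone growth, differed by -0.01 (95% interval -0.30 to 0.28). Fgfr4, known from liver, differed by -0.16 (95% interval -0.46 to 0.14) and was dim. In all 3 the groups overlapped, and the limma adjusted p lay between 0.812 and 0.994.

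**Figure D2:**
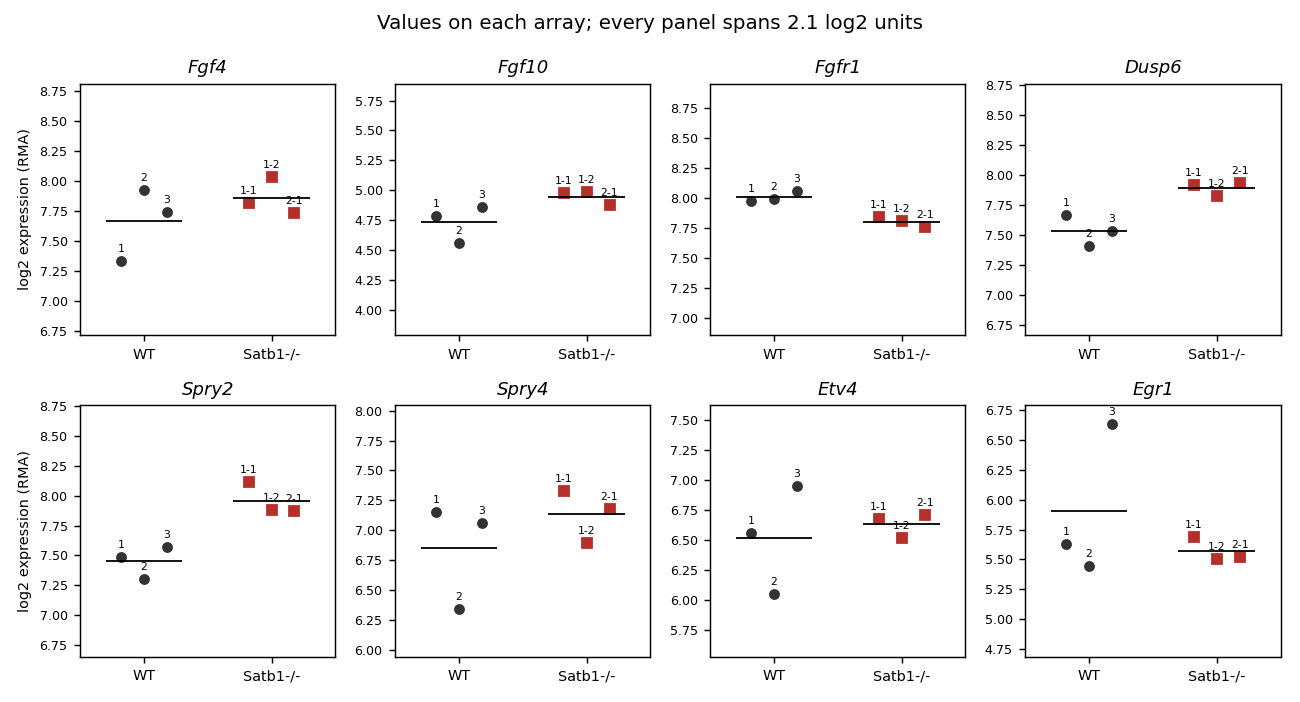
Log2 expression (vertical axis) of 8 pathway genes on the 3 WT arrays (circles) and 3 Satb1-/- arrays (squares), each point labelled with its replicate and the bar at the group mean; each panel has its own range of equal span. Groups are apart for Fgf10, Fgfr1, Dusp6 and Spry2, and WT arrays 2 and 3 spread widely for Spry4, Etv4 and Egr1.

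Among the transducing genes, from the adaptors to the MEK kinases, the groups overlapped in all 9, where 15.1% of all genes had groups that did not overlap. Their limma adjusted p lay between 0.8 and 0.997, and their median difference was 0.07, against 0.01 in both other classes. All 9 were above the median gene level. The adaptor gene Grb2 read 7.55, 7.59 and 7.73 in WT and 7.82, 7.72 and 7.71 in Satb1-/- cells, a difference of 0.12 (SE 0.10). Ptpn11, which encodes the phosphatase SHP2, an activator of RAS signalling, differed by 0.05 (95% interval -0.19 to 0.28).

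The exchange factor genes gave 0.07 for Sos1 and 0.14 for Sos2. Sos1 spanned 6.78 to 7.35 over the WT arrays and 7.01 to 7.18 over the Satb1-/- arrays. Nras, the 1 RAS gene of the list that was measured, read 8.20, 8.21 and 8.61 against 8.34, 8.01 and 8.23, a difference of -0.14 (SE 0.14), with WT array 3 as the high one. The RAF kinase genes Araf and Braf differed by -0.00 and -0.04, and both WT groups contained the Satb1-/- range. Map2k1, which encodes MEK1, read 8.82, 9.19 and 9.02 against 9.09, 9.12 and 9.18 (difference 0.12, SE 0.12). Map2k2, which encodes MEK2, read 7.27, 7.02 and 7.56 against 7.56, 7.42 and 7.38 (difference 0.17, SE 0.14). For both MEK genes the difference was smaller than the SD of the WT arrays (0.19 and 0.27, n = 3).

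The feedback inhibitors and targets, whose transcripts respond to ERK signalling, held the largest differences of the list in both directions, while their median was 0.01, with 6 positive and 6 negative. Spry2, a Sprouty inhibitor that dampens receptor signalling to RAS and ERK, read 7.49, 7.30 and 7.57 on WT arrays 1, 2 and 3 and 8.11, 7.88 and 7.87 on Satb1-/- arrays 1-1, 1-2 and 2-1. Every Satb1-/- value lay above every WT value. The difference was 0.50 (SE 0.12), a fold of 1.42, with an unadjusted p of 0.00161 and a limma adjusted p of 0.0755. It passed the threshold without WT array 3 (0.56, adjusted p = 0.0429) and with array weights (0.57, adjusted p = 0.0183), and over all alternatives run the adjusted p lay between 0.0183 and 0.32.

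Dusp6, the cytoplasmic phosphatase that removes the activating phosphates of ERK, was also higher on every Satb1-/- array. It read 7.67, 7.41 and 7.53 in WT and 7.91, 7.83 and 7.94 in Satb1-/- cells. The groups did not overlap, and the difference was 0.35 (SE 0.11), a fold of 1.28, with an unadjusted p of 0.00822 and a limma adjusted p of 0.198. With array weights the adjusted p was 0.0422, and over the other alternatives it was at least 0.139. Dusp4, the nuclear counterpart, read 6.83, 6.78 and 6.35 against 6.86, 6.36 and 6.83. Each group of Dusp4 held 1 low array, and the difference was 0.03 (SE 0.17, limma adjusted p = 0.984).

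Spry2 and Dusp6 were the 2 bright members that lay higher on all Satb1-/- arrays, and their start regions are shown for that reason. They are the RefSeq windows on GRCm38.p6 from 250 bases before to 50 after the annotated start, chr14:105896770-105897069 on the minus strand for Spry2 and chr10:99262981-99263280 on the plus strand for Dusp6, written 5′ to 3′. Capitals mark CCGGAA, the core preferred by many Ets factors.
Spry2: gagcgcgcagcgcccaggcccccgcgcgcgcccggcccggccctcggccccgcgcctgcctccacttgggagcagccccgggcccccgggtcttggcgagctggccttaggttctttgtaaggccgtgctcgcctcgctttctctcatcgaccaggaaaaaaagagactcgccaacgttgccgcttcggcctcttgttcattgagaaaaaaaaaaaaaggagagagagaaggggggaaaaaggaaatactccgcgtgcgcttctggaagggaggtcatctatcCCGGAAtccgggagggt
Dusp6: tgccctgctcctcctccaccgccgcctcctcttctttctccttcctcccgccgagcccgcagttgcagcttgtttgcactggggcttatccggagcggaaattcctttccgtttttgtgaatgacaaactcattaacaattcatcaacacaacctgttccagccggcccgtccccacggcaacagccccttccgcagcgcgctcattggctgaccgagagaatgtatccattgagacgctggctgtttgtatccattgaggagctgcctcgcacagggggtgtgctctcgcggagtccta

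Both windows are rich in CG, with 62.7% G and C and 28 CG dinucleotides in that of Spry2 and 57.3% and 19 in that of Dusp6, where the median of all windows was 52.7% and 7. CCGGAA, searched on both strands, was found in the Spry2 window and not in that of Dusp6. It stands in 14.9% of all 32851 windows and in 6 of the 26 windows (23.1%) of the 23 measured members that the table covers. The AP-1 motif TGACTCA, also searched on both strands, was in 5.2% of all windows and in 0 of the 26. The motifs do not overlap each other, and a match describes letters in a window, not binding.

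The Sprouty paralogs did not move as one. Spry4 read 7.15, 6.34 and 7.06 in WT and 7.33, 6.89 and 7.18 in Satb1-/- cells, so that the mean difference of 0.28 (SE 0.20, limma adjusted p = 0.746) rested on WT array 2, and without that array it was 0.03. Spry1 read 6.05, 6.27 and 5.79 against 5.96, 5.94 and 5.71, a difference of -0.16 (95% interval -0.47 to 0.14). Spred1 and Spred2, which inhibit RAF activation by way of neurofibromin, differed by -0.05 and -0.01 with overlapping groups. The second probe set of Spred2 gave -0.28, with WT values of 8.26, 7.95 and 7.99 against 7.76, 7.75 and 7.84, so that the probe sets of this gene did not give the same order.

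The Ets factor genes Etv4 and Etv5, direct readouts of FGF signalling in many embryonic tissues, were not divided by genotype. Etv4 read 6.56, 6.05 and 6.95 in WT and 6.67, 6.51 and 6.71 in Satb1-/- cells, and the Satb1-/- values lay inside the WT range. Its difference of 0.11 (SE 0.19) became -0.12 without WT array 2 and 0.33 without WT array 3. Etv5 read 8.77, 8.90 and 8.85 against 8.77, 8.70 and 8.93 (difference -0.04, SE 0.11) on the brighter of its 2 probe sets. The other read 7.37, 7.20 and 7.62 against 7.63, 7.42 and 7.55 (difference 0.14). Probe sets were assigned by gene symbol, and whether both lie at the Etv5 locus was not checked.

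Egr1, an immediate early gene switched on within minutes of ERK activation, had the most negative difference of the list, and 1 array made it. It read 5.63, 5.44 and 6.63 on the WT arrays and 5.69, 5.51 and 5.52 on the Satb1-/- arrays. The difference was -0.33 (SE 0.25, limma adjusted p = 0.768) with all arrays and 0.03 without WT array 3. That array also had the highest level of Krt8, a trophectoderm keratin that fell by 2.72 (limma adjusted p = 0.00209), at 10.09 against 8.80 on both other WT arrays. The 8 trophectoderm markers did not go 1 way, with 3 positive and 5 negative differences. Eomes (0.55) and Tfap2c (0.33) were higher on every Satb1-/- array. Krt18 (difference -2.48, limma adjusted p = 0.00514) read 9.66 on WT array 3, against 7.98 and 8.23 on WT arrays 1 and 2. Cdx2, Eomes, Gata3 and Hand1 also had their highest WT value on WT array 3. Tfap2c and Elf5 did not. On WT arrays 1, 2 and 3 Tfap2c read 7.69, 7.92 and 7.71, and Elf5 4.07, 4.04 and 3.88. The median deviation of the 8 markers from their 6-array means was 0.45 on WT array 3, against 0.04 and -0.04 on WT arrays 1 and 2. Any link of these markers to the value of Egr1 was not tested. Fosl1, which encodes the AP-1 protein FRA-1, read 5.38, 4.94 and 5.07 against 4.94, 4.96 and 4.80, a difference of -0.23 (SE 0.13, limma adjusted p = 0.635). Ier3, an immediate early gene linked to cell survival, read 5.81, 6.14 and 5.93 against 5.95, 6.29 and 6.21, a difference of 0.19 (SE 0.13, limma adjusted p = 0.725).

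Most of the pathway's targets spread more among WT than among Satb1-/- arrays, as did most genes of the array. Egr1 had an SD of 0.64 in WT and 0.10 in Satb1-/- cells, Etv4 one of 0.45 and 0.10, and Spry4 one of 0.44 and 0.22 (n = 3 each). The WT SD was the larger in 9 of 12 feedback genes (75.0%) and in 23 of 32 members (71.9%). It was also the larger in 68.3% of all genes and in 76.9% of genes above the median level, where 11 of the 12 feedback genes lay. The median SD of the feedback class was 0.24 in WT and 0.13 in Satb1-/- cells. Equal spread was not tested, and these shares describe the arrays.

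**Figure D3:**
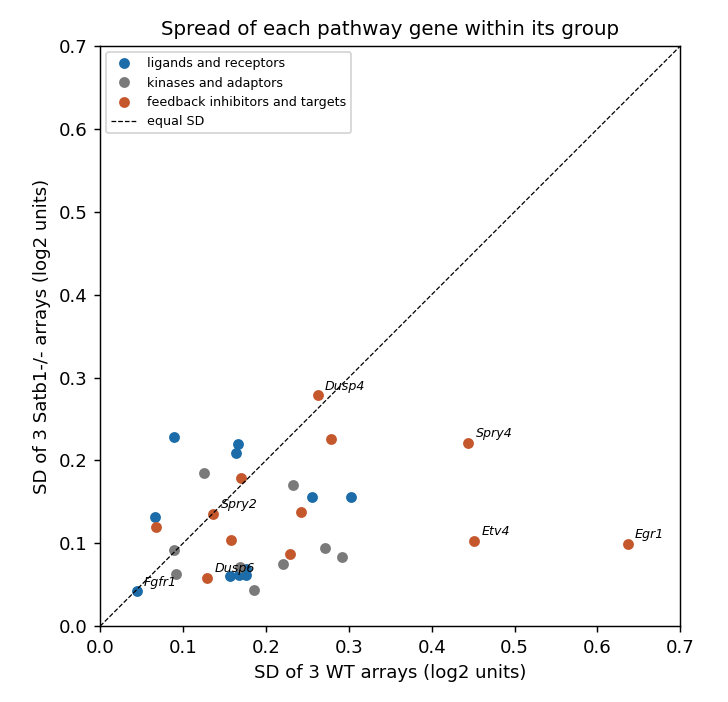
SD of each of the 32 measured genes over the 3 WT arrays (horizontal axis) and the 3 Satb1-/- arrays (vertical axis), both in log2 units, with a dashed line at equal SD. Egr1 (0.64 in WT, 0.10 in Satb1-/-), Etv4 and Spry4 lie far to the right of the line.

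The WT arrays did not differ in one way for the whole pathway. WT array 2 was the lowest WT array for 7 of the 12 feedback genes, and for 29.3% of all genes. The median deviation of the 5 Sprouty and Spred genes from their 6-array means was -0.28 on WT array 2, against 0.09 and 0.07 on WT arrays 1 and 3. It was 0.18, -0.10 and 0.02 on Satb1-/- arrays 1-1, 1-2 and 2-1. WT array 1 was the low one for the kinases and adaptors, at -0.13, against -0.01 and 0.07 on WT arrays 2 and 3. The highest of all 6 arrays was clone 1-1 for 9 of the 32 members, WT array 3 for 8 and clone 1-2 for 5. It was WT array 1 for 4, WT array 2 for 4 and clone 2-1 for 2, and these counts were not set beside those of all genes. The levels of WT and Satb1-/- arrays overlapped in each of the 3 classes. The feeder markers followed a different order, with WT array 3 lowest (-0.24) and WT array 2 highest (0.09) among WT arrays, and their part in these levels was not tested.

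**Figure D4:**
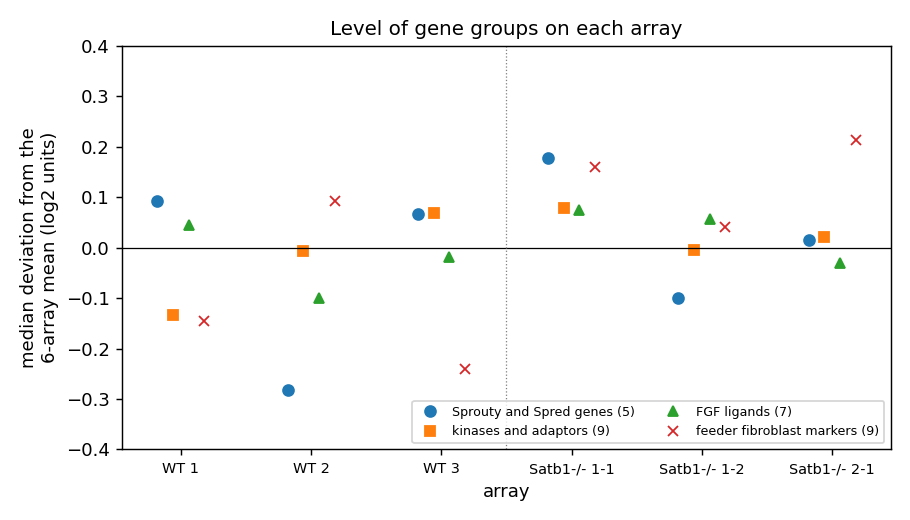
Median deviation of a gene group from the mean of the 6 arrays (vertical axis, log2 units) on each array (horizontal axis), for Sprouty and Spred genes, kinases and adaptors, FGF ligands and feeder fibroblast markers; the number of genes is in brackets. Sprouty and Spred genes are lowest on WT array 2 (-0.28), and feeder markers on WT array 3 (-0.24).

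Beyond the 32 members, 75 of 80 other listed genes of FGF and RAS signalling were measured, and 1 of them changed, which is 1.33% where 1.4% of all genes changed. Their median difference was -0.03, and 16 of the 75 had groups that did not overlap (21.3%, against 15.1% of all genes and 1990 of the 9969 genes above the median level, where 51 of the 75 lay). The changed gene was Dusp16, a phosphatase that acts mainly on the JNK and p38 kinases rather than on ERK. It read 6.77, 6.70 and 6.80 in WT and 8.15, 8.08 and 8.16 in Satb1-/- cells. The groups were tight and far apart, and the difference was 1.37 (SE 0.10, limma adjusted p = 0.000254), a fold of 2.59. It stayed past the threshold under all 16 alternatives, between 1.26 and 1.41.

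The next 3 by size did not pass. Gab1, the docking adaptor that carries FGF and other receptor signals to Ptpn11 and PI3 kinase, read 9.39, 9.39 and 9.87 in WT and 8.95, 8.86 and 8.91 in Satb1-/- cells. Its groups did not overlap, and the difference was -0.65 (SE 0.14, limma adjusted p = 0.0558); it passed under 5 of the 16 alternatives, among them without WT array 3 (-0.48, adjusted p = 0.043). Jund, an AP-1 subunit gene, read 7.83, 7.38 and 7.89 against 6.96, 7.23 and 7.14, a difference of -0.59 (SE 0.15, limma adjusted p = 0.0962), and passed without WT array 2 (-0.75, adjusted p = 0.0259). Fgf7, a growth factor of fibroblasts that acts on epithelium, read 5.77, 6.30 and 6.39 against 7.06, 6.30 and 6.86, a difference of 0.59 (SE 0.21, limma adjusted p = 0.292).

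The feeder markers lay beside Fgf7 in this comparison. Thy1, a surface protein of fibroblasts, read 6.89, 6.93 and 6.20 in WT and 7.41, 6.93 and 7.55 in Satb1-/- cells (difference 0.62, limma adjusted p = 0.262). Its groups were apart only by a very narrow margin, with WT array 2 and clone 1-2 both at 6.93. Clone 1-2, the lowest clone for Fgf7, was the lowest for 6 of the 9 feeder markers and the highest for the other 3, the collagen genes Col1a1, Col1a2 and Col3a1. WT array 3, the highest WT array for Fgf7, was the lowest WT array for 7 of the 9. In a bulk sample, fewer cells of a type and less RNA per cell cannot be told apart, and the part of feeder cells in Fgf7 and Fgf10 was not tested.

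Gene position went along with several of these values. Dusp16 lies on chromosome 6 among raised genes: of the 20 brighter genes nearest to it, 10 on each side where brighter means above the median level, 18 were higher, with a median difference of 0.86 (range -0.87 to 1.60). With the median of the brighter genes of chromosome 6 subtracted on each array the difference of Dusp16 was 1.26. The median difference of those genes was only 0.08, so that this leaves the local rise in place. None of the alternatives subtracted the median of the neighbours. The ligand genes Fgf6 and Fgf23 lie in the same raised part of the chromosome, with 18 of 20 neighbours higher and a neighbour median of 0.76, but read 3.84 and 4.19 in WT and differed by -0.04 and -0.03. Braf, on the same chromosome with a neighbour median of 0.07, differed by -0.04.

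On chromosome 8, whose 570 brighter genes had a median difference of -0.29, lie 8 of the measured members and other pathway genes. Fgfr1 differed by -0.21, and 15 of its 20 neighbours were not higher either (median -0.19). With the chromosome median subtracted the difference of Fgfr1 was 0.08. Dusp4 differed by 0.03 although 0 of its 20 neighbours were higher (median -0.33, range -0.60 to -0.04), and with the chromosome median subtracted it differed by 0.32 (SD of its arrays 0.26 in WT and 0.28 in Satb1-/- cells, limma adjusted p = 0.696). Gab1 and Jund are there too, with neighbour medians of -0.35 and -0.32, and with the chromosome median subtracted they differed by -0.36 and -0.30 (limma adjusted p = 0.36 and 0.62). The other 4, named because they lie there, were the RAS inhibitor gene Rasa3 (-0.32), the immediate early gene Ier2 (-0.46), the AP-1 gene Junb (-0.13) and the ligand gene Fgf20 (-0.00). Of the 94 pathway genes on other chromosomes than 6 and 8, 0 passed the test by limma, and the median difference was -0.01. An unadjusted p under 0.05 was reached by 13 (13.8%), against 10.5% of all genes and 16.5% of genes above the median level, where 68 of the 94 lay. Loss of Satb1 and the shifts of whole chromosome stretches cannot be told apart in these clones.

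**Figure D5:**
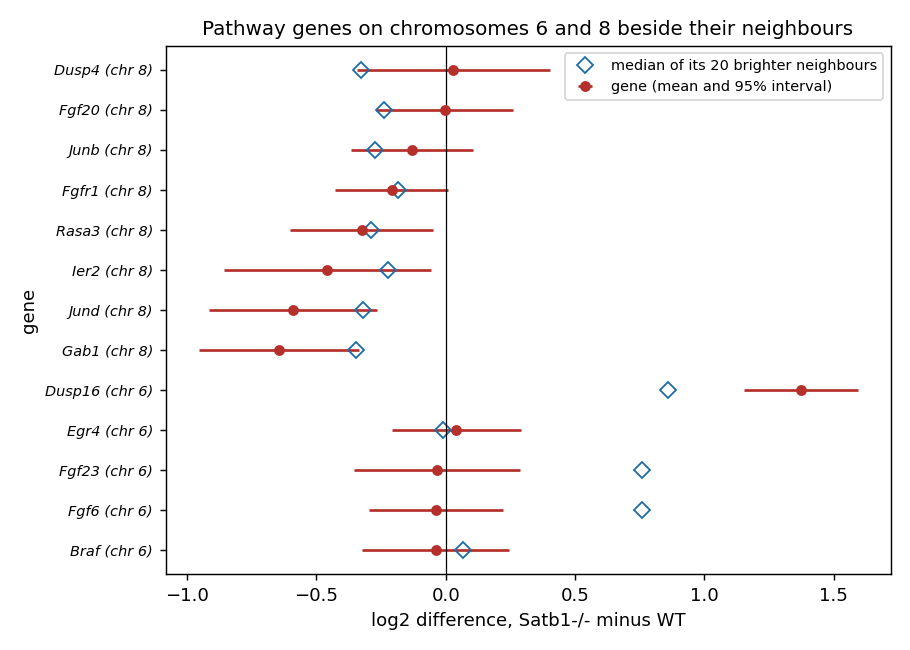
Log2 difference (Satb1-/- minus WT, horizontal axis) of the 13 pathway genes on chromosomes 6 and 8 (vertical axis), as circles with the 95% interval from limma, and the median of the 20 brighter genes around each as diamonds. Fgfr1 (-0.21) sits at its neighbours' median (-0.19), Dusp4 (0.03) above it (-0.33), and Dusp16 (1.37) above a raised neighbourhood (0.86).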

How the data were processed

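Each deposited value was the log2 expression of a probe set on an array, and per the submitters' processing notes the authors made it with RMA, which subtracts background, equalises the arrays and summarises probes. The sources used here give neither RMA's version and settings nor a genome build. Of 35557 probe sets, 21789 had exactly 1 gene symbol in the platform annotation. The one with the highest mean was kept per gene. Chromosomes and gene order came from RefSeq genes of GRCm38.p6, found for 19853 genes by Entrez ID. Satb1-/- and WT arrays were compared with limma 3.58.1 (R 4.3.3; lmFit, eBayes, no covariate, no filter), with p-values adjusted over all 19938 genes. The fit was tested on simulated data. Arrays have no read depth, and their number limits the precision. Members, lists and tests were chosen with earlier results of these data known. By rule all members were named, and of the other pathway genes those that passed and the 4 with the largest absolute difference. Pathway genes on chromosomes 6 and 8 and those of the closing section were added after their values were seen. Alternatives covered probe sets, dim genes, scaling, variance model, array weights, clones, single arrays and chromosome shifts.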

Additional observations from a re-analysis of the deposited data

How the results depend on the processing

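Of 32 members, 0 changed with all arrays, 2 with array weights (both feedback genes, Dusp6 and Spry2), and 0 to 1 when 1 array was left out; for the feedback genes alone the counts were 0, 2 and 0 to 1. The ligands and receptors and the kinases and adaptors gave 0 under all 16 alternatives. Of the other pathway genes, 1 changed, against 2 among genes above the median level, 2 after a second quantile normalization, 2 with a variance trend and robust estimation, 5 with array weights and 1 to 3 with 1 array left out. The median of the ligands and receptors was 0.01, and lay between -0.016 and 0.0533 with 1 array left out. In 17 of 32 members the sign of the difference turned under at least 1 alternative, Egr1 included. Over all genes 279 changed (65.9% higher), against 22 with a floor on dim values (81.8% higher), 146 with each array centred (79.5%), 608 with array weights, 117 with the mean of clones 1-1 and 1-2 as 1 sample (76.9%), and 94 to 480 with 1 array left out (59.6% to 80% higher); the cause was not tested. No paired analysis was possible because the arrays of the groups share no replicate numbers. The number of arrays and the floor of hybridisation signal limit what dim ligands can show.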

Other observations

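Of the 75 other pathway genes, 16 had an unadjusted p under 0.05, and 15 of these missed the threshold after adjustment. That share of 21.3% stands against 10.5% of all genes and 16.5% of genes above the median level, where 51 of the 75 lay. Beyond Gab1 and Jund, the 6 with the lowest adjusted p are given here, a choice made after their values were seen. All 6 had groups that did not overlap, which a choice by lowest adjusted p favours. Such groups were found in 15.1% of all genes. Fosb, an AP-1 gene of the immediate early class, read 5.70, 5.58 and 5.54 in WT and 5.21, 5.29 and 4.96 in Satb1-/- cells (difference -0.45, limma adjusted p = 0.119). Fgf15, a ligand gene that neighbours Fgf4, read 5.27, 5.42 and 5.14 against 4.78, 4.87 and 4.97 (difference -0.40, limma adjusted p = 0.154). Gab2, the paralog of Gab1, read 5.30, 5.22 and 5.26 against 4.93, 4.85 and 4.96 (difference -0.35, limma adjusted p = 0.162) and lies on chromosome 7.

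Mras, a RAS relative that helps to activate RAF, read 5.22, 4.83 and 5.46 against 5.71, 5.54 and 5.96 (difference 0.57, limma adjusted p = 0.176), and its second probe set gave 0.13. Pea15a, which encodes a protein that holds ERK in the cytoplasm, read 6.83, 6.92 and 7.22 against 6.70, 6.54 and 6.47 (difference -0.42, limma adjusted p = 0.194). Srf, which encodes the serum response factor that acts with Ets partners on immediate early genes, read 6.59, 6.49 and 6.84 against 7.12, 6.90 and 7.02 (difference 0.37, limma adjusted p = 0.241).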
